A study of Schmidtea mediterranea with 24 samples.

Results

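The transcripts described here are those that stood lower in planarian tails after an injection, whether vesicles or buffer had been injected. They were chosen by a fixed rule on CPM, the counts of a transcript in every 1000000 counts of its library. The mean of 4 uninjected libraries had to lie from 1 to under 500 CPM, and the mean of 8 injected libraries at 0.6 times that mean or less. The highest injected library also had to lie below the lowest uninjected one, and transcripts whose vesicle-injected and buffer-injected ranges did not overlap were left out. The rule found 127 of the 28742 transcripts in the table, or 127 of the 16965 with an uninjected mean in its range. Because the rule was selected from these measurements, the falls against uninjected tails are given as a description, without a test.

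The animals were asexual *Schmidtea mediterranea* of the clonal line CIW4, labelled wild type and starved for 7 days. One group received extracellular vesicles (EVs) in the tail, isolated from planarian fragments 12 hours after amputation, at about 1 animal's EVs per recipient and mixed with a fluorescent dextran. The next group received buffer with the same dextran, and the last group received no injection. Each group had 4 libraries, and each library pooled 5 tail fragments without about 10% of the tail at its tip. Injected tails were taken at 24 hours. Injected animals that held little dextran at 1 hour were removed. Uninjected animals had neither the needle, the dextran nor that selection, so these cannot be told apart from one another in any difference from uninjected tails.

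A planarian is a flatworm that replaces its tissues throughout life from dividing stem cells called neoblasts. A break in its body wall sets off a response in which wound-induced genes are switched on and the epidermis and muscle around the break change their transcription. An injection opens such a break and also adds fluid to the tissue. The identifiers in the tables come without gene names or sequences. No role is therefore given for any transcript, no marker list could be applied, and the labelled tissue was not checked against markers. In whole tissue, fewer cells of a type and less RNA per cell give the same lower CPM and cannot be told apart.

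Libraries held 19621187 to 30903133 counts. Over the 16965 transcripts in the range of the rule, the median ratio of injected to uninjected mean was 103%, and 6.4% of them had all injected libraries below all uninjected ones. The 127 lowered transcripts had a median ratio of 51.6%, with quartiles of 43.9% and 57.0%. The lowest was 11.3% and the highest 59.95%. A total of 57 stood at 0.5 times the uninjected mean or lower.

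**Figure D1:**
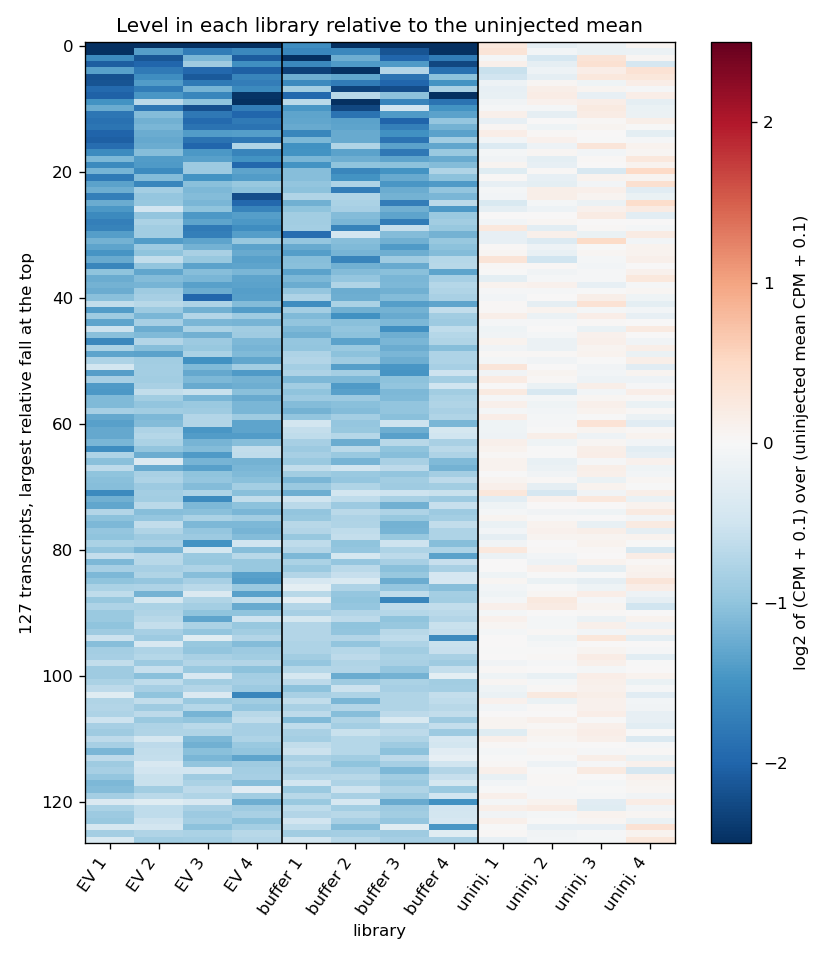
Level of each of the 127 lowered transcripts (rows, largest relative fall at the top) in each library (columns, EV-injected, buffer-injected and uninjected), as log2 of CPM + 0.1 over the uninjected mean + 0.1, with colours cut at 2.5 in either direction. The 8 injected columns are blue throughout, as the rule requires, while the shade varies between libraries and is palest in EV-injected replicate 2 and buffer-injected replicate 4.

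Together the 127 transcripts took 2425.8 ± 262 CPM in EV-injected, 2665.9 ± 225 CPM in buffer-injected and 4986.3 ± 99.4 CPM in uninjected tails (SD, n = 4 each). This is 0.243% of counts in EV-injected, 0.267% in buffer-injected and 0.499% in uninjected tails. EV-injected libraries held 2342.7, 2814.8, 2298.0 and 2247.7 CPM, buffer-injected libraries 2708.9, 2571.8, 2427.7 and 2955.4 CPM, and uninjected libraries 4923.6, 4893.0, 5113.7 and 5014.7 CPM. Both injected groups lay far below the uninjected group, as the rule requires. They overlapped with each other only through EV-injected replicate 2. That library stood above the other EV-injected ones. Without it the sums of that group ran from 2247.7 to 2342.7 CPM, under the lowest buffer-injected sum of 2427.7 CPM. EV-injected replicate 2 was set aside here after the values were seen, while buffer-injected replicate 4, the highest of its group, was kept. The difference between these sums was not tested.

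Falls were found at every level of abundance. At 1 to under 2 CPM there were 25 of the lowered transcripts, with a median ratio of 47.9%, and at 2 to under 10 CPM there were 38, with 49.1%. At 10 to under 100 CPM there were 45, with 53.2%, and at 100 to under 500 CPM there were 19, with 52.1%. They made up 1.05%, 0.698%, 0.588% and 1.27% of all transcripts in these 4 ranges. The scarce ones rest on few reads. Over the 8 injected libraries the scarcest lowered transcript had 63 reads, 7 had under 100, and the median was 1035.

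The largest relative fall was in dd_Smed_v6_8938_0_1, a transcript of 398 bases. It had 0.849, 0.948, 0.508 and 1.09 CPM in EV-injected libraries, 3.28, 0.345, 0.615 and 1.31 CPM in buffer-injected libraries, and 11.9, 8.40, 8.86 and 10.3 CPM in uninjected libraries. Buffer-injected replicate 1 was the highest injected library and still stood well under every uninjected one. The injected mean was 11.3% of the uninjected mean, and the next largest fall, in dd_Smed_v6_21015_0_1, left 23.9%. This transcript had 0.212 to 0.683 CPM in EV-injected, 0.253 to 0.561 CPM in buffer-injected and 1.72 to 2.43 CPM in uninjected libraries. The injected groups covered much the same range, and uninjected replicate 1 was the highest library.

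The following 4 in order had uninjected means of 1.20 to 3.19 CPM. dd_Smed_v6_23048_0_1 averaged 0.668 ± 0.261 CPM with EVs, 0.606 ± 0.262 CPM with buffer and 2.35 ± 0.510 CPM without injection (SD, n = 4 each, as for all means given so). dd_Smed_v6_36029_0_1 averaged 0.347 ± 0.180, 0.317 ± 0.103 and 1.20 ± 0.323 CPM in EV-injected, buffer-injected and uninjected tails. dd_Smed_v6_25234_0_1 averaged 0.875 ± 0.222, 0.916 ± 0.659 and 3.19 ± 0.852 CPM in the same order of groups. In dd_Smed_v6_25234_0_1 the spread with buffer came from replicate 3, which had 1.88 CPM against 0.431 to 0.802 CPM in the other buffer-injected libraries. dd_Smed_v6_26505_0_1 had 0.212, 0.379, 0.231 and 0.349 CPM in EV-injected, 0.509, 0.474, 0.291 and 0.591 CPM in buffer-injected and 0.915, 1.118, 1.59 and 1.63 CPM in uninjected libraries. Its injected groups overlapped only through buffer-injected replicate 3.

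Among the 6 lowered transcripts with the highest CPM in uninjected tails, the remaining level ran from 34.4% to 58.7%. dd_Smed_v6_2075_0_1, of 1318 bases, had 167, 195, 162 and 150 CPM in EV-injected, 191, 190, 167 and 207 CPM in buffer-injected and 352, 345, 369 and 367 CPM in uninjected libraries. It stood at 49.8% of the uninjected mean after injection, and its uninjected libraries were close together. dd_Smed_v6_1789_0_1 had 225, 200, 213 and 188 CPM with EVs, 176, 246, 200 and 196 CPM with buffer and 329, 362, 382 and 348 CPM without injection. Here EV-injected and buffer-injected tails had nearly equal means, 206 ± 15.8 and 204 ± 29.6 CPM.

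dd_Smed_v6_583_0_1 had 133, 190, 118 and 130 CPM in EV-injected, 212, 167, 139 and 238 CPM in buffer-injected and 299, 322, 339 and 332 CPM in uninjected libraries. Injected libraries of this transcript differed among themselves far more than uninjected ones did. dd_Smed_v6_1595_0_1 averaged 93.7 ± 15.3 CPM in EV-injected, 116 ± 24.6 CPM in buffer-injected and 179 ± 6.07 CPM in uninjected tails. dd_Smed_v6_1127_0_1 averaged 56.1 ± 17.3 CPM in EV-injected, 62.4 ± 9.88 CPM in buffer-injected and 172 ± 24.2 CPM in uninjected tails. The spread of dd_Smed_v6_1595_0_1 was wide after injection, as for dd_Smed_v6_583_0_1. The SD of dd_Smed_v6_1127_0_1 was largest without injection, at 24.2 CPM. Its coefficient of variation was 22.7% over the injected libraries of both groups together and 14.0% over uninjected libraries. Its EV-injected spread came largely from replicate 2, at 81.8 CPM against 43.6 to 49.9 CPM in the other EV-injected libraries. Per length, the uninjected means of dd_Smed_v6_2075_0_1, dd_Smed_v6_583_0_1 and dd_Smed_v6_1595_0_1 were 272, 209 and 150 CPM per kilobase. The highest per kilobase of all 127 was dd_Smed_v6_28_0_1, of 320 bases, at 449 CPM per kilobase, a transcript picked for this value after it was seen.

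**Figure D2:**
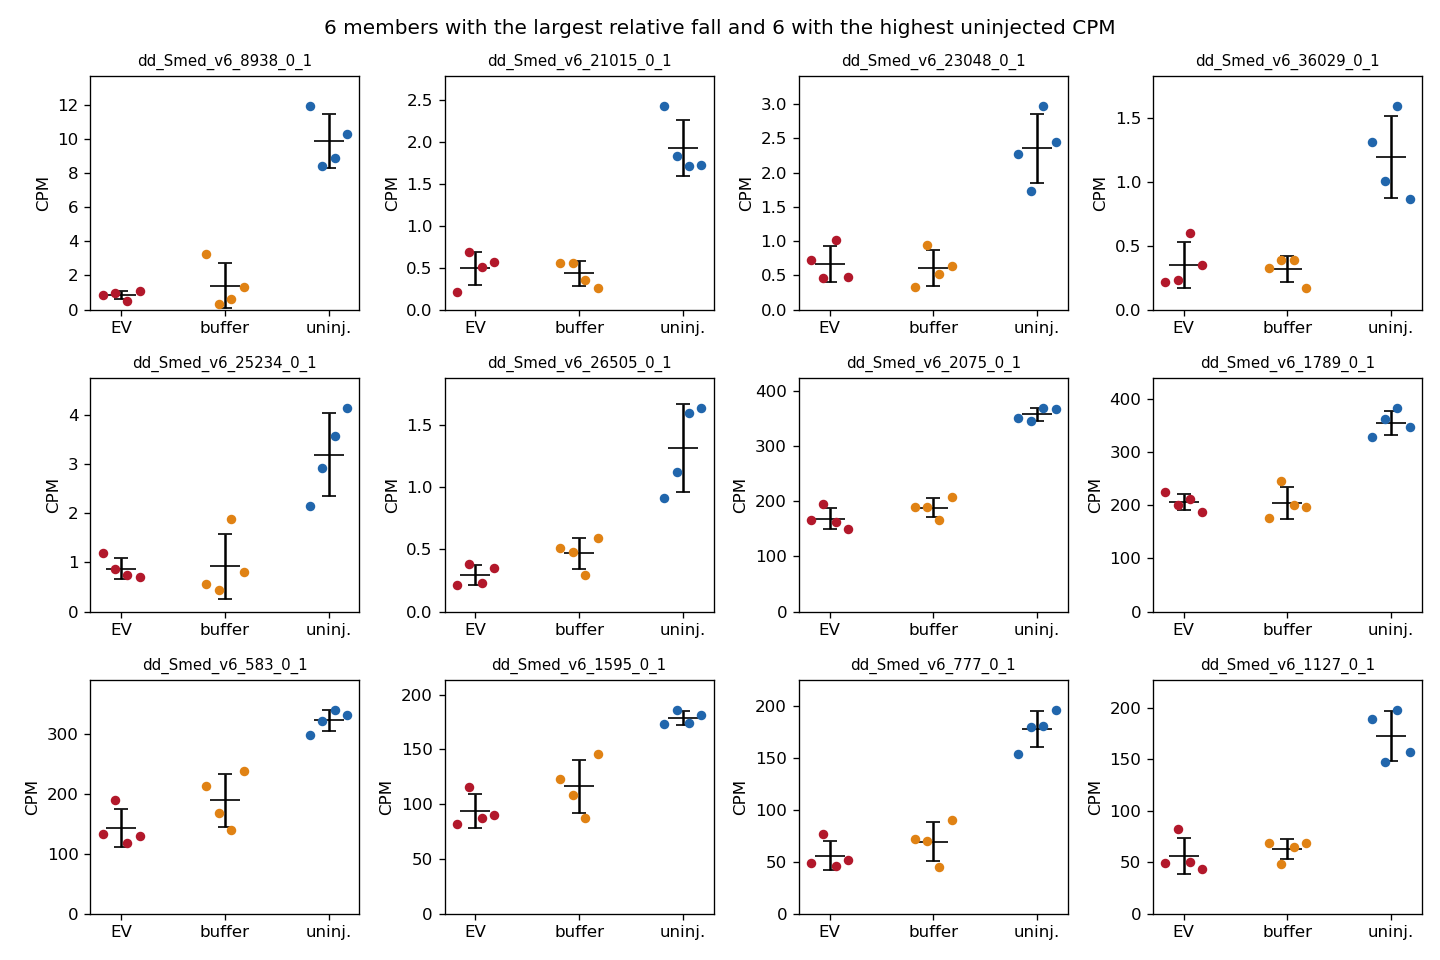
CPM (y axis, from 0) in each EV-injected, buffer-injected and uninjected library for 12 lowered transcripts, 6 with the largest relative fall and 6 with the highest uninjected CPM. Points are libraries and bars the mean ± SD of 4, and in every panel all injected points lie under all uninjected points, as chosen.

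The fit over all transcripts gave each of the 127 a negative fold change in both comparisons with uninjected tails, which share the uninjected libraries. The quasi-likelihood fit of edgeR tested 21149 transcripts, these 127 among them. EV-injected over uninjected tails gave a median log2 fold change of −1.06 for the lowered transcripts and 0.00 for all tested, with a range of −3.57 to −0.58. Buffer-injected over uninjected tails gave a median of −0.94 for the lowered and 0.00 for all, with a range of −2.93 to −0.66. At a fall to 0.5 times or lower, a log2 value of −1, there were 74 with EVs and 53 with buffer. The rule used these values and the share of all tested transcripts at that level is not given, so nothing is read from these counts. All 127 were called lower at an edgeR adjusted p under 0.05 in both comparisons. Of all tested transcripts 11.9% were called lower with EVs and 9.6% with buffer. The count of 127 follows from the rule and nothing is read from it. Among the named transcripts, run 1 alone gave no call with buffer for dd_Smed_v6_27192_0_1 (log2 −0.89, against −5.19 in run 2) or dd_Smed_v6_22067_0_1 (−0.64). It gave none with EVs for dd_Smed_v6_49221_0_1 (−0.36). Run 2 alone gave none with EVs for dd_Smed_v6_22067_0_1 (−0.73). Calls of the other lowered transcripts in single runs are not given here.

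The authors' deposited table lists 121 of the 127 and gives all 121 as lower in both comparisons with uninjected tails at a false discovery rate under 0.05. Of all transcripts in the authors' deposited table, 14.7% were lower by that limit with EVs and 12% with buffer. Its median log2 fold change over the 121 was −1.05 with EVs and −0.95 with buffer. It gives 0 of the 121 as lower with EVs than with buffer, against 0.0789% of all transcripts in it. That table rests on the same libraries as the rule, so these counts are shaped by the rule and nothing is read from them.

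EV-injected and buffer-injected tails differed little over the lowered transcripts, within what the rule allowed. The rule had left out 9 transcripts whose injected ranges did not overlap, 7 of them lower with EVs and 2 higher. Among the 127 the log2 fold change of EV-injected over buffer-injected tails had a median of −0.11 and ran from −0.64 to 0.50, with 122 of them within 0.5 in either direction. It was below 0 for 100 of the 127, or 78.7%, against 51.2% of all tested transcripts in the same range of uninjected CPM. By unscaled CPM, the EV-injected mean was the lower one for 96 of the 127, or 75.6%, against 43.9% of transcripts in that range. Many of the 127 shifted together between libraries, as given below, and the rule had used both groups. These tallies are therefore not 127 separate observations, and they were not tested.

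That median was −0.19 without EV-injected replicate 2 and −0.07 without buffer-injected replicate 4. The rule used the values of both injected groups and left out transcripts whose ranges lay apart, so calls between these groups are given as counts and nothing is read from them. At an adjusted p under 0.05, edgeR called 0 of the 127 and 0.0993% of all tested. At an unadjusted p under 0.05 there were 14 of the 127 with edgeR, or 11%, against 10.1% of all tested. limma-voom called 0, and DESeq2 called 1, dd_Smed_v6_4971_0_1, while giving 63 of the 127 no adjusted p. dd_Smed_v6_4971_0_1 averaged 16.9 ± 2.998 CPM with EVs, 22.4 ± 3.48 CPM with buffer and 35.3 ± 2.301 CPM without injection. Without EV-injected replicate 2, edgeR called 2, dd_Smed_v6_7676_0_1 at a log2 fold change of −0.27 and dd_Smed_v6_8335_0_1 at −0.50. The shares of all tested transcripts called by limma-voom, by DESeq2 and without that replicate are not given here.

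The ends of that range lay below 10 CPM in uninjected tails. dd_Smed_v6_25837_0_1 had 0.892, 0.835, 0.786 and 0.611 CPM in EV-injected libraries, against 0.416, 0.776, 0.485 and 0.507 CPM in buffer-injected libraries, a log2 fold change of 0.50 ± 0.26 (SE). dd_Smed_v6_49221_0_1 had 4.08, 4.25, 3.97 and 2.18 CPM in EV-injected libraries, against 2.73, 3.88, 2.14 and 1.77 CPM in buffer-injected libraries, at 0.46 ± 0.23 (SE). For dd_Smed_v6_49221_0_1 this value was 0.02 in run 2 alone. Its log2 fold change over uninjected tails was −0.58 ± 0.21 (SE) with EVs and −1.04 ± 0.22 with buffer. That with EVs was −0.36 in run 1 and −1.01 in run 2, and without EV-injected replicate 4 it was −0.40. It missed the threshold in 9 alternatives, among them run 1 alone and the removal of single libraries from each of the groups. At the low end stood dd_Smed_v6_8938_0_1, at −0.64 ± 0.48 (SE), and dd_Smed_v6_26505_0_1, at −0.63 ± 0.36 (SE). Without buffer-injected replicate 1, the log2 fold change of dd_Smed_v6_8938_0_1 over buffer was 0.17.

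**Figure D3:**
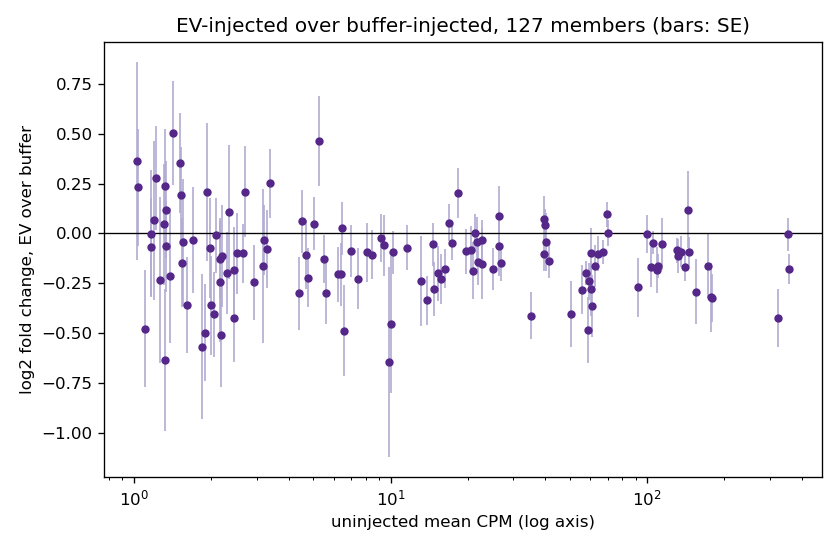
Log2 fold change of EV-injected over buffer-injected tails from the edgeR fit (y axis, bars SE) against the uninjected mean CPM (x axis, log scale) for the 127 lowered transcripts. Most points lie somewhat below 0, around a median of −0.11, and the widest scatter is at low CPM.

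The lowered transcripts varied more between injected libraries than other transcripts did. Their median coefficient of variation was 19.0% in EV-injected, 15.6% in buffer-injected and 10.0% in uninjected tails. Over all transcripts in the range it was 7.84%, 7.76% and 7.52%. Counting error is smaller at an uninjected mean of 10 CPM and above. There the 64 lowered transcripts had 14.6%, 14.5% and 6.61%, against 5.37%, 5.32% and 5.21% for all 9142 transcripts. After injection the lowered ones of that level stood at a median of 53.0% of uninjected and all at 104%. Their injected counts were thus not alike.

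Levels of many lowered transcripts were highest in EV-injected replicate 2 and buffer-injected replicate 4. The median level of the 127 was 47.2%, 53.8%, 47.9% and 45.5% of the uninjected mean in EV-injected replicates 1 to 4. It was 52.7%, 50.7%, 48.1% and 55.7% in buffer-injected replicates 1 to 4. EV-injected replicate 2 was the highest EV-injected library for 68 of the 127 (53.5%), against 21.7% of all transcripts in the range. Buffer-injected replicate 4 was the highest buffer-injected library for 69 (54.3%), against 24.7%. Both held for 47 (37.0%), against 5.83% of all. Of the 64 at 10 CPM and above both held for 38 (59.4%), against 7.18%.

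At the other end, EV-injected replicate 4 was the lowest EV-injected library for 49 of the 127 (38.6%), against 19.9% of all. Buffer-injected replicate 3 was the lowest of its group for 52 (40.9%), against 25% of all. In totals, EV-injected replicate 2 was the deepest of its group at 26359352 counts. Buffer-injected replicate 4 held 23691044, within the range of 21626096 to 30903133 of its group, and the deepest buffer-injected library was replicate 3. The deepest library was thus often the highest of the EV-injected and the lowest of the buffer-injected ones. The part of depth in the pattern was not tested.

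Transcripts that an injection raised moved the other way in the libraries in which the lowered ones deviated most. By a mirrored rule, 167 transcripts stood at 1/0.6 times the uninjected mean or more with no overlap with uninjected libraries, at a median of 194%. Their median log2 deviation from the mean of their own group was −0.11 in EV-injected replicate 2 and −0.07 in buffer-injected replicate 4, where the lowered transcripts had 0.18 and 0.14. In EV-injected replicate 4 the raised ones had 0.07 and the lowered ones −0.08. In buffer-injected replicate 3 these values were 0.08 and −0.11. In buffer-injected replicate 1 both sets were above their group mean, the raised ones at 0.05 and the lowered ones at 0.07. Over all transcripts in the range, no library deviated by more than 0.03 in either direction, the widest being uninjected replicate 4 at −0.03.

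**Figure D4:**
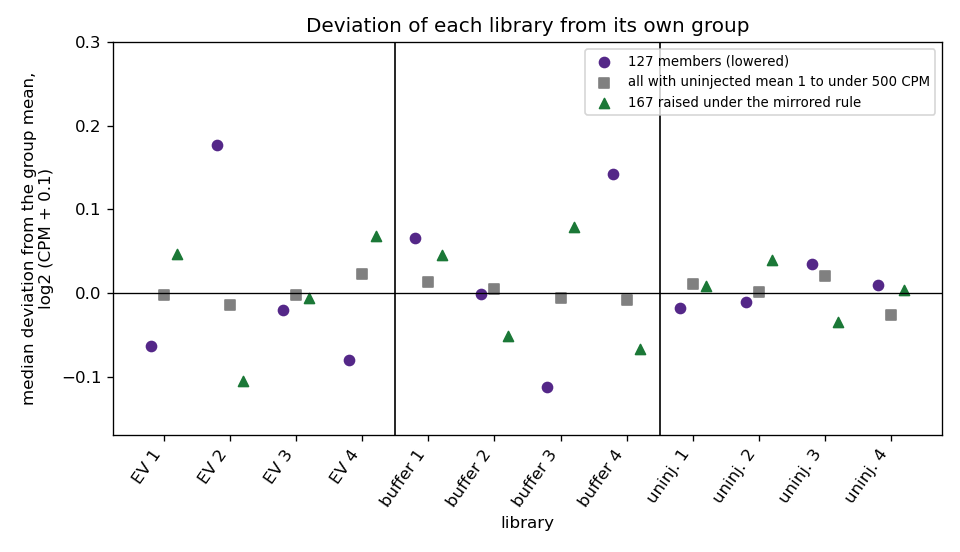
Median deviation from the group mean, in log2 of CPM + 0.1 (y axis), in each library (x axis) for the 127 lowered transcripts, for all transcripts with an uninjected mean of 1 to under 500 CPM and for the 167 raised ones. The lowered transcripts are highest in EV-injected replicate 2 (0.18) and buffer-injected replicate 4 (0.14), where the raised ones are lowest (−0.11 and −0.07).

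The other 80 lowered transcripts did not have both peaks. The 4 most variable and the 4 steadiest over the injected libraries, among the 64 at 10 CPM and above, were picked after the values were seen. dd_Smed_v6_777_0_1 had 49.0, 77.0, 46.0 and 51.9 CPM in EV-injected, 72.4, 70.4, 44.6 and 90.3 CPM in buffer-injected and 154, 180, 181 and 196 CPM in uninjected libraries. dd_Smed_v6_6547_0_1 had 14.2, 24.0, 16.2 and 16.8 CPM in EV-injected, 26.8, 24.4, 16.3 and 31.9 CPM in buffer-injected and 55.6, 62.9, 58.4 and 57.4 CPM in uninjected libraries. Both had peaks in EV-injected replicate 2 and buffer-injected replicate 4 and their lowest buffer-injected level in buffer-injected replicate 3.

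The remaining variable ones ran differently in buffer-injected tails. dd_Smed_v6_1043_0_1 had 2.38, 3.57, 3.14 and 1.75 CPM in EV-injected, 2.497, 6.12, 4.85 and 1.10 CPM in buffer-injected and 8.80, 11.3, 8.64 and 11.3 CPM in uninjected libraries. Its lowest library was buffer-injected replicate 4, in which dd_Smed_v6_777_0_1 had its highest injected level. dd_Smed_v6_12877_0_1 had 5.01, 7.17, 3.97 and 5.02 CPM in EV-injected, 3.42, 9.49, 6.18 and 5.70 CPM in buffer-injected and 11.4, 14.4, 11.7 and 15.1 CPM in uninjected libraries. Like dd_Smed_v6_1043_0_1, it peaked in replicate 2 of either injected group.

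The steadiest were nearly flat after injection. dd_Smed_v6_3808_0_1 had 9.68, 10.5, 9.80 and 9.43 CPM in EV-injected, 9.43, 10.996, 10.03 and 9.83 CPM in buffer-injected and 17.6, 17.7, 19.8 and 14.4 CPM in uninjected libraries. dd_Smed_v6_1224_0_1 averaged 56.1 ± 4.19 CPM in EV-injected, 57.1 ± 3.56 CPM in buffer-injected and 105 ± 4.48 CPM in uninjected tails. Their levels after injection, 57.4% and 53.9% of uninjected, varied by 5.5% and 6.4% over the 8 injected libraries (coefficient of variation). dd_Smed_v6_1543_0_1 averaged 38.1 ± 3.19, 40.1 ± 1.32 and 67.4 ± 4.28 CPM in EV-injected, buffer-injected and uninjected tails. dd_Smed_v6_2911_0_1 averaged 40.9 ± 2.98, 40.4 ± 2.93 and 70.2 ± 6.08 CPM in that order, with a log2 fold change of EVs over buffer of 0.00 ± 0.07 (SE). Over the whole set, the 47 with both peaks had a median level of 52.1% of uninjected and the other 80 a median of 51.5%.

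**Figure D5:**
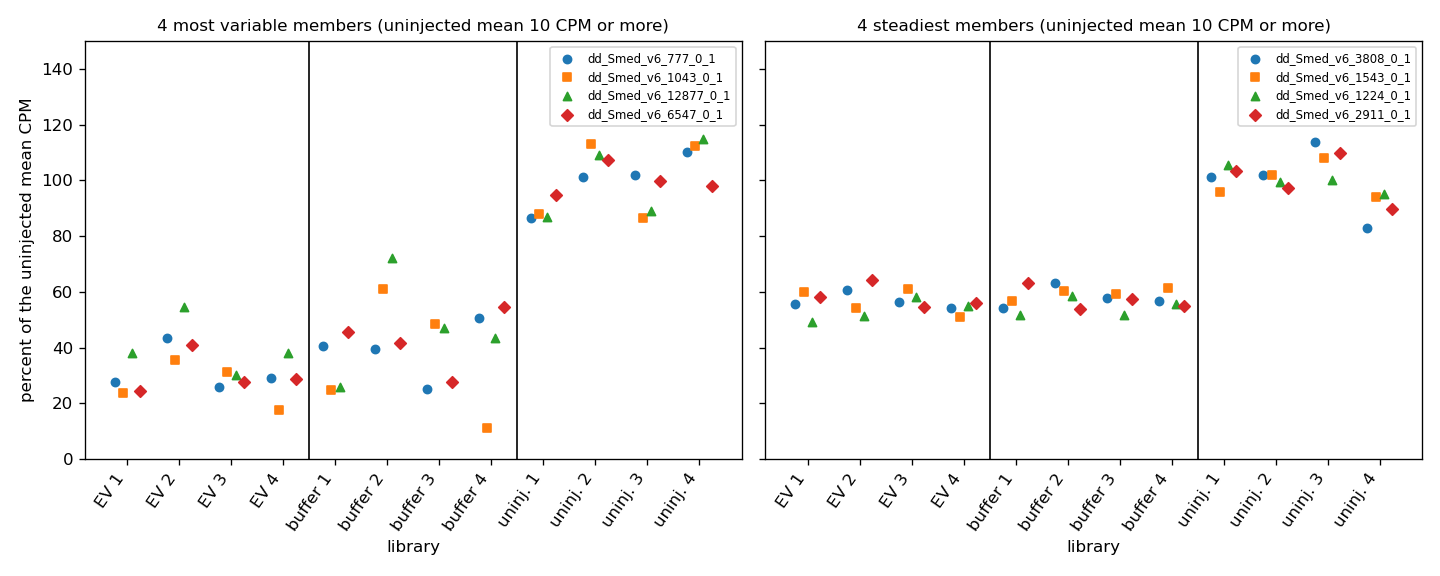
Level in each library as a percentage of the uninjected mean CPM (y axis) for the 4 most variable (left) and the 4 steadiest (right) lowered transcripts with an uninjected mean of 10 CPM or more. On the left dd_Smed_v6_777_0_1 and dd_Smed_v6_6547_0_1 peak in EV-injected replicate 2 and buffer-injected replicate 4, while dd_Smed_v6_1043_0_1 is lowest in buffer-injected replicate 4. On the right the injected libraries lie close together.

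Lowered transcripts were shorter than all transcripts on median. Length, which the rule did not use, ran from 222 to 3659 bases with a median of 1110 (quartiles 743.5 and 1516.5), against a median of 1284 (quartiles 775 and 1981) and a maximum of 19524 bases for all transcripts in the range. At 10 CPM and above the medians were 1228.5 bases for the lowered and 1674 bases for all. The shortest, dd_Smed_v6_101775_0_1, averaged 0.636 ± 0.0519 CPM in EV-injected, 0.669 ± 0.210 CPM in buffer-injected and 1.17 ± 0.110 CPM in uninjected tails. The longest, dd_Smed_v6_1381_0_1, averaged 66.1 ± 5.66 CPM in EV-injected, 69.4 ± 3.24 CPM in buffer-injected and 130 ± 8.99 CPM in uninjected tails. Their falls were close, to 55.9% and 52.1%.

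No pair of lowered transcripts shared the component number in its identifier, so by name the 127 are separate assemblies. For 2 of them the table holds another transcript with the same component number, and these did not fall in step. dd_Smed_v6_13516_0_1 averaged 3.97 ± 0.602 CPM in EV-injected, 4.18 ± 0.573 CPM in buffer-injected and 7.01 ± 0.723 CPM in uninjected tails, at 58.1% of the uninjected mean. Its companion dd_Smed_v6_13516_1_1, of 1250 bases, had an injected mean of 3.39 CPM against 2.68 CPM in uninjected tails, or 126%. dd_Smed_v6_9425_1_1 stood at 59.3%, while its companion dd_Smed_v6_9425_0_2 had an injected mean of 1.09 CPM against 1.16 CPM, or 93.6%. How reads that match both of such a pair were counted is not given in the sources used here, so the division between them is uncertain.

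The libraries were sequenced in 2 runs, which repeat the counting of the same RNA. With run 1 alone, 128 transcripts met the rule, 100 of them among the 127. With run 2 alone, 127 met it, 86 of them among the 127. A total of 74 met it in each run, 54 of the 64 at 10 CPM and above and 20 of the 63 below. The median level after injection was 51.4% of uninjected in run 1 and 51.0% in run 2. The runs differed by a median of 1.66 percentage points at 10 CPM and above, with a maximum of 8.91, and by a median of 7.25 below 10 CPM. The widest gap was in dd_Smed_v6_37803_0_1, with 45.5% in run 1 and 83.8% in run 2. It had 167 reads over the 8 injected libraries. dd_Smed_v6_27192_0_1, the scarcest of all at 0.363 ± 0.223 CPM in EV-injected, 0.289 ± 0.220 CPM in buffer-injected and 1.03 ± 0.138 CPM in uninjected tails, stood at 45.8% in run 1 and 18.8% in run 2.

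The limits of the rule fall within a continuous range. Just inside the limit of 0.6 were dd_Smed_v6_2249_0_1, at 11.8 CPM in injected and 19.7 CPM in uninjected tails, and dd_Smed_v6_22067_0_1, at 1.25 and 2.09 CPM. Just outside were dd_Smed_v6_4629_0_1, at 41.6 and 69.2 CPM, and dd_Smed_v6_13139_0_1, at 5.99 and 9.96 CPM, with ratios of 0.601 each. On the low side, dd_Smed_v6_27192_0_1 was inside with an uninjected mean of 1.03 CPM and dd_Smed_v6_26348_0_1 outside with 0.961 CPM. Another 31 transcripts met the limit of 0.6 but overlapped with the uninjected libraries. Above 500 CPM, 13 further transcripts met the other conditions, with uninjected means of 645 to 10781.9 CPM and ratios of 38.6% to 58.1%. These 13 took 1.89% of counts in EV-injected, 2.20% in buffer-injected and 4.43% in uninjected tails. EV-injected replicate 2 was the highest EV-injected library for 12 of them, but buffer-injected replicate 4 was the highest buffer-injected library for only 2.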

How the data were processed

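The lowered transcripts, and all lists here, were chosen with earlier results of these data known. The authors deposited whole-number read counts per transcript for each of 2 sequencing runs and for both together, with no normalization. Per the labels' protocols, libraries came from poly-A selected RNA read as pairs of 150 bases. Reads were trimmed with BBDuk, per the design text. FastQC 0.11.5, Bowtie2 2.3.1, Subread 1.6.3 (featureCounts) and edgeR 4.0.16 appear in the submitters' processing notes. The strand setting, the build of the transcriptome and how reads with several matches were counted are not stated there. The authors also deposited a table of log2 fold changes and of a p-value adjusted as a false discovery rate per comparison, per the file headers.

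The 24 samples are 12 libraries with 2 runs each, which were summed and counted as 1 replicate. The sums equalled the deposited table in all 344904 cells. The mean chi-square per transcript (at least 50 counts) was 1.50 to 1.95 between runs and 4.33 to 18.5 between libraries of a group, so none was a repeat.

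CPM used column totals, and log2 CPM a pseudocount of 0.1. Fits over all transcripts used edgeR 4.0.16 in R 4.3.3 (filterByExpr, TMM, quasi-likelihood, 1 model over 12 libraries, Benjamini-Hochberg), checked on simulated data. The simulated transcripts all had the same spread and no shared shifts between libraries, so the check does not cover those of the lowered transcripts. SE came from the F statistic. Named transcripts follow ranks fixed for ratio, uninjected CPM, EV over buffer, spread, limits and length. Others are said to be picked later. Alternatives were DESeq2 1.42.0 and its size factors, limma-voom (limma 3.58.1), no filter, a replicate block, each run, other limits of the rule and each library left out. Figures used matplotlib 3.10.9.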

Additional observations from a re-analysis of the deposited data

Results flagged for a closer look

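In groups of 4 libraries, 84 checks looked for a library far from the other 3, where chance alone would mark about 4.2, and 5 were marked. EV-injected replicate 2 was marked for the summed level of the lowered transcripts, 2814.8 CPM against 2247.7 to 2342.7 CPM in the other EV-injected libraries. It was also marked for dd_Smed_v6_1127_0_1, 81.8 CPM against 43.6 to 49.9 CPM. EV-injected replicate 4 was marked for dd_Smed_v6_49221_0_1, 2.18 CPM against 3.97 to 4.25 CPM. Buffer-injected replicate 4 was marked for dd_Smed_v6_2249_0_1, 16.04 CPM against 10.6 to 10.95 CPM. Uninjected replicate 1 was marked for dd_Smed_v6_21015_0_1, 2.43 CPM against 1.72 to 1.84 CPM.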

How the results depend on the processing

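The rule found 57 transcripts at a limit of 0.5 and 283 at 0.7, by construction, and 154 with TMM or DESeq2 scaling, which held all 127. With each library left out it found 118 to 150, of which 110 to 122 were among the 127. Median log2 fold changes with a library left out ran from −1.11 to −1.04 for EV-injected and from −1.001 to −0.92 for buffer-injected over uninjected tails, and from −0.19 to −0.07 for EV-injected over buffer-injected tails. Calls between the injected groups, 0 with edgeR, were 1 with DESeq2 and 0 to 2 with a library left out, and the cause was not tested. Shares over all tested transcripts are not given for these alternatives, so nothing is read from the counts. The count with a lower EV-injected mean, 96, ran from 86 to 97 with a library left out and was 81 with run 2 alone. The 47 peaks shared by EV-injected replicate 2 and buffer-injected replicate 4 were 41 in run 1, 43 in run 2 and 51 with TMM, alternatives chosen after seeing the data.

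Replicate numbers did not pair the libraries, with correlations of −0.0202 to 0.143 between libraries of the same number and the best partner under the same number in 7 of 24 cases. The replicate block gave medians of −1.06, −0.95 and −0.11 and 0 calls between the injected groups. Of 1470 alternative values of named transcripts, 20 moved by more than the SD between replicates, 16 of them with a run alone, and 0 of the called ones changed sign. Of 979 repeated comparisons of named transcripts with uninjected tails, 12 missed the threshold. Of these, 9 were of dd_Smed_v6_49221_0_1, 2 of dd_Smed_v6_22067_0_1 and 1 of dd_Smed_v6_27192_0_1. Scarce transcripts moved most: EVs over buffer, dd_Smed_v6_27192_0_1 had −0.62 in run 1 and 3.68 in run 2, and dd_Smed_v6_21015_0_1 had −0.41 and 1.49. Below 10 CPM, depth limits what single transcripts show.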
